A study of Caenorhabditis elegans with 10 samples.

Results

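Of the 2732 genes in the authors' table of RNAs enriched with DLC-1, 9 genes of small structural RNAs are described here: 4 small nuclear RNA (snRNA) genes, 3 small nucleolar RNA (snoRNA) genes and 2 unclassified non-coding RNA (ncRNA) genes. They were chosen by name from that table, with their enrichment in view. Their fold changes, means and standard errors are therefore descriptions and carry no test. The worms were synchronized young adults of *Caenorhabditis elegans* with the genotype 3xFLAG::DLC-1. RNA was sequenced from 5 immunoprecipitates made with an antibody against FLAG and from 5 inputs of whole worm extract, and both groups carry the tag. Worms without the tag were not analysed here. The design text gives the purpose as finding RNAs in complexes with DLC-1, a dynein light chain that also occurs in other protein complexes.

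snRNAs are the RNA cores of the particles that splice pre-mRNA. Most of them are bound by a ring of Sm proteins and carry a modified cap. snoRNAs guide the chemical modification of ribosomal and other structural RNAs. Box C/D snoRNAs direct methylation with fibrillarin, and box H/ACA snoRNAs direct pseudouridine formation with dyskerin. Many snoRNAs are cut from the introns of other genes. Mature RNAs of these kinds have in general no poly(A) tail.

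That last property bears on every value of such RNAs given below. Per the labels' protocols, oligo-dT priming was used for the inputs, and the precipitated RNA was made into libraries with no enrichment step. A difference between immunoprecipitate and input in an RNA without a tail cannot be told apart from this difference in library preparation. The table gives 1 mean and 1 fold change per gene and no value per library, so the spread among the 5 libraries of a group and their depth are unknown. The labels do not say whether the replicates were separate cultures, so the deposited errors may be technical. The same lack of values per gene outside the table means that the whole-worm label could not be checked against tissue markers.

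All 9 genes were higher in the immunoprecipitates, by 82.5-fold for the lowest and 2695-fold for the highest in the authors' deposited table. In the authors' deposited table their median log2 fold change was 9.25, against 2.13 over all 2732 listed genes. Within their annotated classes the medians were higher, at 7.51 for the listed snRNAs, 5.35 for the snoRNAs and 6.57 for the ncRNAs. The table itself holds 13.4% of the 20328 genes that its adjusted p-values imply were tested. All 9 were at or above 64-fold, as were 13.8% of the listed genes, and 6 of them were among the 10 highest folds of the authors' deposited table. The largest adjusted p of the 9 in the authors' deposited table was 4.10e-13, for C06A1.9. A one-sided normal test against 2-fold, with Benjamini-Hochberg adjustment over the listed genes, was passed by all 9 and by 63.8% of the listed genes. Because the choice of the genes used this contrast, nothing is read from these counts.

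**Figure D1:**
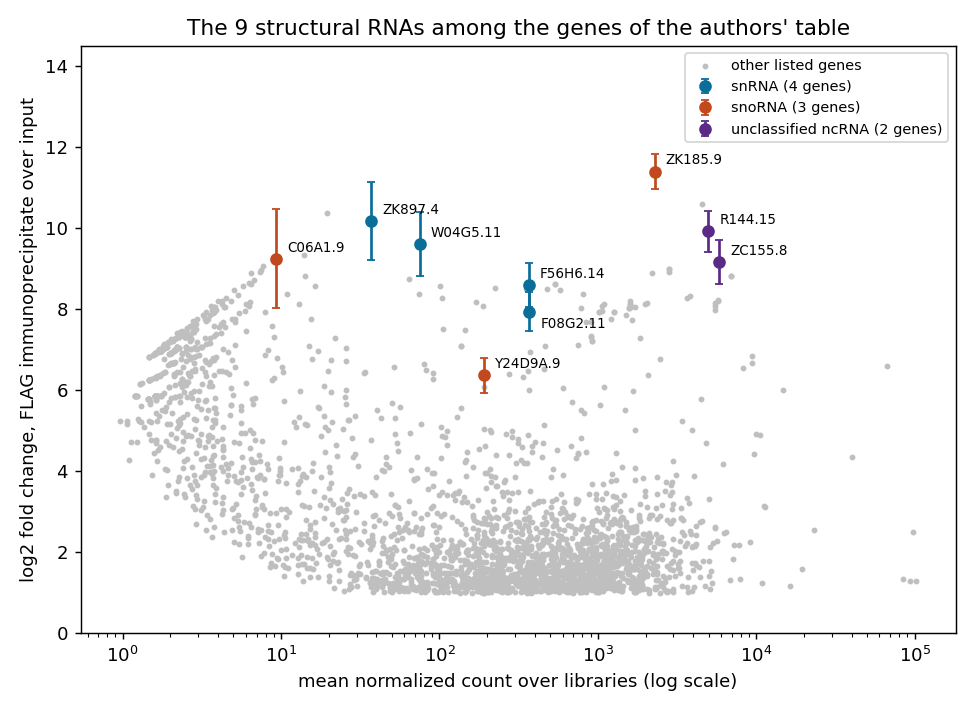
Each point is a gene of the authors' deposited table, with the mean normalized count over libraries on a log axis and the log2 fold change of FLAG immunoprecipitate over input; coloured points are the 9 genes with bars of 1 standard error. ZK185.9 has the highest fold, 11.40, and C06A1.9 lies at the upper edge of the genes with low means.

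The 4 snRNA genes had high folds at low to moderate means. ZK897.4, a gene of 122 bp on chromosome IV (12787138 to 12787259, WBcel235), had 10.17 ± 0.96 (SE) as its log2 fold change in the authors' deposited table. Its mean in the authors' deposited table was 37.2 normalized counts. W04G5.11, of 185 bp on chromosome I (11649503 to 11649687), had a log2 fold change of 9.60 ± 0.79 and a mean of 75.1 normalized counts by the authors' deposited table. These 2 genes had the highest folds of all listed snRNAs and ranked 14 and 13 by mean per kilobase of gene length among the 21 of them.

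F56H6.14 and F08G2.11 showed the other combination, the highest means of the listed snRNAs, also per kilobase, and smaller folds. F56H6.14, of 187 bp on chromosome I (12286588 to 12286774), had a log2 fold change of 8.59 ± 0.53 and a mean of 367 normalized counts by the authors' deposited table. F08G2.11, of 186 bp on chromosome II (13852787 to 13852972), had a log2 fold change of 7.94 ± 0.48 and a mean of 369.6 normalized counts by the authors' deposited table. Within 50 kb of F08G2.11, 13 histone genes were listed. The annotated histone genes of that stretch were not counted, so their listed share is not known. Among the 4 snRNAs the order by fold was thus the reverse of the order by mean, also per kilobase of gene length, and the standard error was largest where the mean was lowest. That order depends on the inputs: with no less than 3 counts over the inputs the log2 folds were 8.59 for F56H6.14, 7.97 for W04G5.11, 7.94 for F08G2.11 and 6.95 for ZK897.4, which is then the lowest.

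The 3 snoRNA genes differed most from each other. ZK185.9, of 215 bp on chromosome IV (4538702 to 4538916), had the highest fold of the authors' deposited table, a log2 fold change of 11.40 ± 0.43. Its mean in the authors' deposited table was 2295 normalized counts, the highest of the 64 listed snoRNAs, also per kilobase. Y24D9A.9, of 221 bp and 148393 bp away from ZK185.9 on the same chromosome (4390088 to 4390308), had a log2 fold change of 6.37 ± 0.43 by the authors' deposited table. With a mean of 192 normalized counts by the authors' deposited table, Y24D9A.9 ranked 2 by mean per kilobase among listed snoRNAs and 21 by fold. C06A1.9, of 113 bp on chromosome II (10562952 to 10563064), ranked 2 by fold and 24 by mean per kilobase. It had a log2 fold change of 9.25 ± 1.23 and a mean of 9.33 normalized counts by the authors' deposited table. That standard error was the largest of the 9 genes. Neither the authors' table nor the reference says which of the 3 are box C/D or box H/ACA RNAs.

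The 2 unclassified ncRNAs, R144.15 and ZC155.8, combined high folds with the highest means of the 9 genes. The reference lists them as *srpr-2.2* and *srpr-2.1*, in the worm's naming a stem for RNA of the signal recognition particle, which targets nascent secretory proteins to the endoplasmic reticulum. Both are 299 bp long and lie on chromosome III, 179511 bp apart (5031410 to 5031708 and 5211220 to 5211518). R144.15 had a log2 fold change of 9.92 ± 0.51 and a mean of 4988 normalized counts by the authors' deposited table. ZC155.8 had a log2 fold change of 9.16 ± 0.55 and a mean of 5839.5 normalized counts by the authors' deposited table. They ranked 1 and 2 by fold among the 317 listed genes of the reference's ncRNA class, and 2 and 1 by mean.

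The family of *srpr* genes has 5 members in the reference, of which 3 were listed, next to 4.08% of the reference's ncRNA class. R144.15 and ZC155.8 are among these 3 and were chosen from the listed genes, so the count is no result about the family. The third was B0285.12 (*srpr-1.2*), also on chromosome III, with a log2 fold change of 8.90 ± 0.60 and a mean of 2187 normalized counts by the authors' deposited table. *srpr-1.1* and *srpr-3* were not listed. Copies of such a family can share reads, and how multi-mapping reads were counted is not given in the sources used here, which makes the value of each copy uncertain.

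Set side by side, the 3 classes had overlapping deposited folds. The median log2 fold change in the authors' deposited table was 9.10 for the 4 snRNAs, with a range of 7.94 to 10.17. It was 9.25 for the 3 snoRNAs, with a range of 6.37 to 11.40, and 9.54 for the 2 ncRNAs, with a range of 9.16 to 9.92. With the inputs set at no less than 3 counts over the group, a choice made after the data were seen, the medians were 7.96 for the snRNAs, 6.37 for the snoRNAs and 9.54 for the ncRNAs. The snRNAs then ran from 6.95 to 8.59 and no longer overlapped the ncRNAs, which kept their range of 9.16 to 9.92, so the overlap of these classes rests on ZK897.4 and W04G5.11. The snoRNAs had the widest range in both settings, with 4.96 to 11.40 under that floor.

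Levels of the snRNAs and snoRNAs overlapped, and those of the ncRNAs lay above both. Per kilobase of gene length, the means of the authors' deposited table ran from 305 to 1987 normalized counts for the snRNAs. They ran from 82.6 to 10675 normalized counts per kilobase for the snoRNAs. For the ncRNAs they were 16681 and 19530.2 normalized counts per kilobase, above all of the other 7 genes. Over all listed genes the median was 40.9 normalized counts per kilobase in the authors' deposited table, so C06A1.9, the lowest of the 9, was still above it on this scale. Without division by length it was far below the listed median, at 9.33 against 222 normalized counts. Its 113 bp compare with a median length of 4533 bp over the listed genes.

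Standard errors followed the means in part. In the authors' deposited table the median standard error of the log2 fold change was 0.66 for the snRNAs, 0.43 for the snoRNAs and 0.53 for the ncRNAs, against 0.31 over all listed genes. C06A1.9, ZK897.4 and W04G5.11, the 3 genes with the lowest means, had the 3 largest standard errors. The ncRNAs, with the highest means, did not have the smallest. Those belonged to Y24D9A.9 and ZK185.9, both at 0.43 in the authors' deposited table. For listed genes with means of 1000 to 10000 normalized counts the median standard error was 0.18 in the authors' deposited table, and all 3 of the 9 genes in that range were above it.

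**Figure D2:**
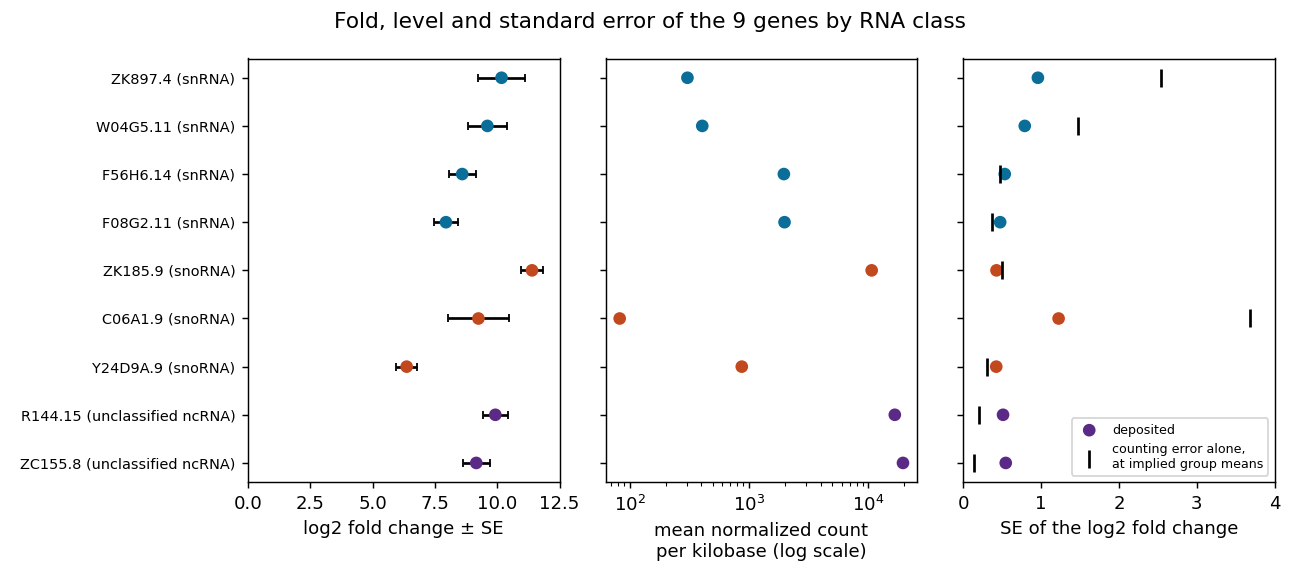
Rows are the 9 genes by class. The panels show the log2 fold change of FLAG immunoprecipitate over input with 1 standard error, the mean normalized count per kilobase on a log axis, and the deposited standard error beside the counting error at the implied group means. Deposited folds overlap between classes, the ncRNAs have the highest level per kilobase, and C06A1.9, ZK897.4 and W04G5.11 have a deposited error well under the counting error.

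The folds rested on very small input values. With 5 samples in each group, a mean over all 10 libraries and a fold together imply a mean for each group, on the assumption that the deposited fold is the plain ratio of group means. On this reading ZC155.8 had 11659 normalized counts per immunoprecipitate and 20.4 per input. R144.15 had 9965 per immunoprecipitate and 10.3 per input, and ZK185.9 had 4589 and 1.70. The immunoprecipitate side thus spanned a wide range, while no gene of the 9 had more than 20.4 implied normalized counts per input.

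The other 6 genes had at most 736 implied normalized counts per immunoprecipitate and 4.61 per input. F08G2.11 had 736 per immunoprecipitate and 2.99 per input, F56H6.14 had 732 and 1.89, and Y24D9A.9 had 380.2 and 4.61. For W04G5.11 they were 150.1 per immunoprecipitate and 0.19 per input, for ZK897.4 74.4 and 0.064, and for C06A1.9 18.6 and 0.031. Summed over the 5 inputs, these last 3 genes come to 0.96, 0.32 and 0.15 normalized counts, less than a single count each. The same sum was below 3 counts for 496 of the 2732 listed genes, or 18.2%.

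For these 3 genes the size of the fold is therefore little constrained from the input side. With the inputs set at 3 counts over the group, the fold of C06A1.9 would be 31.1, that of ZK897.4 124.0 and that of W04G5.11 250.2, against 607, 1154 and 778 in the authors' deposited table. Their order among the 9 genes changes with this choice: C06A1.9 moves to the lowest place, and ZK897.4 moves below the other snRNAs. The deposited standard errors of these genes were smaller than counting error alone would give at the implied means with size factors of 1. For C06A1.9 that error is 3.69 on the log2 scale against the deposited 1.23, for ZK897.4 2.54 against 0.96, and for W04G5.11 1.47 against 0.79. ZK185.9 was also below it, by a small margin (0.49 against 0.43), and the size factors are not in the table. A deposited error below the counting error was found for 4 of the 9 genes and for 514 of the 2732 listed genes.

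**Figure D3:**
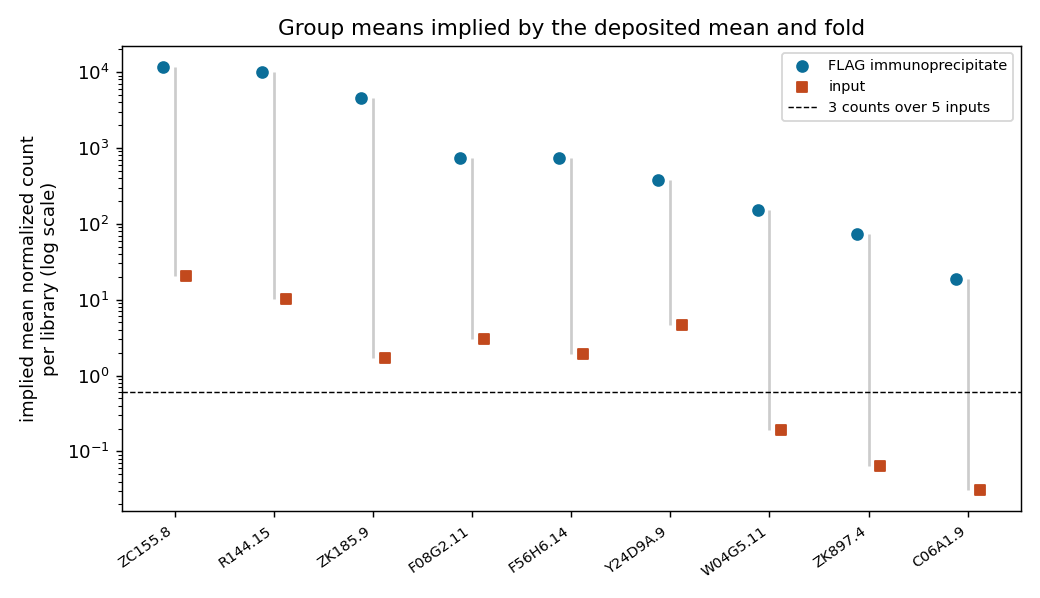
For each of the 9 genes, the mean normalized count per library implied by the deposited mean and fold is shown on a log axis for the FLAG immunoprecipitates (circles) and the inputs (squares); the dashed line marks 3 counts over the 5 inputs. W04G5.11, ZK897.4 and C06A1.9 fall below the line on the input side.

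Within their annotated classes the 9 genes are among many others, most at lower levels except beside W04G5.11 and ZK897.4. These ranked 13 and 14 by mean per kilobase among the 21 listed snRNAs. In the reference 129 genes are snRNAs, of which 21 were listed (16.3%), 346 are snoRNAs, of which 64 were listed (18.5%), and 7762 are ncRNAs, of which 317 were listed (4.08%). Of all reference genes other than piRNAs 8.43% were listed. The listed snRNAs had a median of 489 normalized counts per kilobase, the listed snoRNAs 42.7 and the listed ncRNAs 15.4 in the authors' deposited table. A mean of at least 10 normalized counts was reached by 20 of 21 snRNAs, 24 of 64 snoRNAs and 23 of 317 ncRNAs. A fold of at least 64 was reached by 18 of 21 snRNAs, 24 of 64 snoRNAs and 212 of 317 ncRNAs. Of the genes that are not among the 9, the snRNA with the highest fold was T11F9.16, at a log2 fold change of 8.74 ± 0.67 by the authors' deposited table. The corresponding snoRNA was W10C8.17 at 8.27 ± 1.22 and the ncRNA K02A11.8 at 8.92 ± 1.39 (log2 fold change ± SE; values of the authors' deposited table). W10C8.17 and K02A11.8 had means of 4.51 and 7.37 normalized counts by the authors' deposited table. Y38F2AR.14 had the highest mean of the other snoRNAs, 104 normalized counts, with a log2 fold change of 4.86 ± 0.67 by the authors' deposited table.

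snRNA genes occur in families of nearly equal length, and the listed ones fell into a few of these, a grouping made after the values were seen. Of 19 snRNA genes of 185 to 187 bp, the length of F08G2.11, F56H6.14 and W04G5.11, 7 were listed. Their log2 fold changes ran from 7.09 to 9.60 and their means from 14.9 to 369.6 normalized counts by the authors' deposited table. Of 10 genes of 122 to 123 bp, the length of ZK897.4, 3 were listed, with log2 fold changes from 5.96 to 10.17 in the authors' deposited table. All 4 genes of 144 bp were listed, at 7.51 to 8.74, and 6 of 10 genes of 163 to 165 bp, at 5.65 to 7.03 (log2 fold change, the authors' deposited table). Of the 80 shorter snRNA genes 1 was listed. None of the 19 genes of 102 bp was listed, and none of the 30 *sls* genes, which encode the spliced leader RNAs that are joined to the start of many worm mRNAs. Genes outside the table may have been unchanged, depleted, below 2-fold or not tested.

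Some listed copies had nearly the same values. F56H6.16, of 187 bp and on chromosome I close to F56H6.14 (12285746 to 12285932), had a log2 fold change of 8.62 ± 0.53 by the authors' deposited table. Its mean, 366.8 normalized counts by the authors' deposited table, equals that of F56H6.14 to this precision. How reads were divided between such copies is not given in the sources used here.

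Listed and unlisted copies of these families differed in their annotation. In the 4 length groups with several listed genes, 20 snRNA genes were listed and 23 were not. Non-coding genes in this comparison are snRNA, snoRNA, ncRNA and long non-coding RNA genes, and other kinds were not searched. None of the 20 listed genes overlaps another such gene in the reference, and 21 of the 23 unlisted genes do (91.3%). In 20 of those 21 the second gene covers at least 90% of the snRNA. Over all snRNA genes the counts were 0 of 21 listed and 41 of 108 unlisted. F56H6.15, a gene of 187 bp next to F56H6.14, and ZK897.3, of 122 bp next to ZK897.4, are unlisted examples, covered in full by F56H6.17 and ZK897.9. None of the overlapping genes of this comparison was listed. *srpr-3*, unlisted, is likewise covered in full by an ncRNA gene, whereas R144.15 shares 39 bp with R144.16 and was listed. For snoRNAs an overlap with another non-coding gene was found for 2 of 64 listed and 35 of 282 unlisted genes. Whether the overlap affected the counting of reads was not tested, and the annotation used by the authors may differ from this one.

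**Figure D4:**
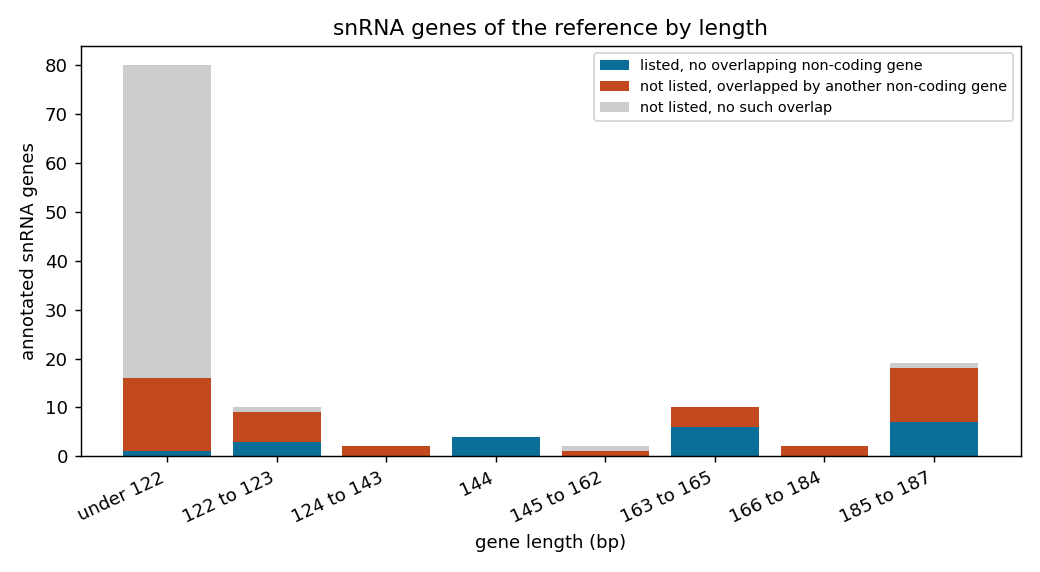
Bars give the number of snRNA genes of the reference by gene length in bp, split into listed genes, unlisted genes overlapped by another non-coding gene, and other unlisted genes. No listed snRNA gene has such an overlap, while 11 of the 12 unlisted genes of 185 to 187 bp do.

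Most of the 9 genes lie inside a protein-coding gene. This holds for 7 of them: F08G2.11 in F08G2.8, F56H6.14 in F56H6.2, ZK897.4 in *unc-31*, ZK185.9 in ZK185.2, Y24D9A.9 in *rpl-7A*, C06A1.9 in *cdc-48.1* and R144.15 in *klp-6*. W04G5.11 and ZC155.8 overlapped no protein-coding, snRNA, snoRNA, ncRNA or long non-coding RNA gene. Other kinds of gene, such as pseudogenes, were not searched. The reference used here gives neither strand nor introns, so it is not known which of them are intronic or on the strand of the gene around them. A position inside a protein-coding gene was found for 8 of 21 listed and 55 of 108 unlisted snRNAs, and for 41 of 64 listed and 172 of 282 unlisted snoRNAs.

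Of these 7 surrounding genes 2 were listed themselves, next to 10.6% of all protein-coding genes, and at much smaller folds. The 9 genes were chosen with their folds in view, so this gap is only described. ZK897.4, at a log2 fold change of 10.17, lies in *unc-31*, a gene for the release of dense-core vesicles, which had 2.91 ± 0.41 in the authors' deposited table. C06A1.9, at 9.25, lies in *cdc-48.1*, a gene for a protein-unfolding ATPase, which had 1.38 ± 0.19 (log2 fold change ± SE; values of the authors' deposited table). The mean of *cdc-48.1* in the authors' deposited table was 4396 normalized counts. *rpl-7A*, the ribosomal protein gene around Y24D9A.9, was not listed. A second snoRNA in *cdc-48.1*, C06A1.8, had a log2 fold change of 4.95 by the authors' deposited table.

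The same relation was seen for most listed snoRNAs inside listed genes. There were 15 such pairs, and in 14 the snoRNA had the higher fold. The median log2 fold change was 5.86 for the snoRNAs and 1.92 for the genes around them in the authors' deposited table. Y65B4A.11 was the exception, at 3.19 against 4.20 for Y65B4A.6 in the authors' deposited table. Low means can pass into the table at high folds alone, and these are also the RNAs touched by the difference in priming, so the pairs are given as a description.

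**Figure D5:**
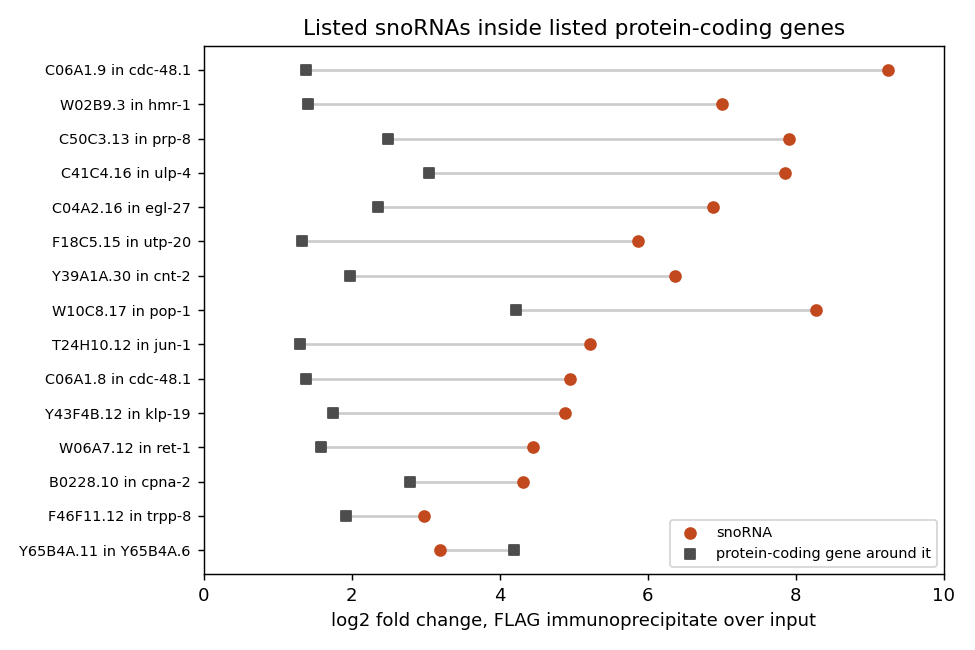
Rows are the 15 listed snoRNAs that lie inside a listed protein-coding gene; circles give the log2 fold change of FLAG immunoprecipitate over input for the snoRNA and squares that of the gene around it. C06A1.9 in cdc-48.1 shows the widest distance, and Y65B4A.11 is the one snoRNA below its surrounding gene.

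The mRNAs of Sm and LSm ring proteins, and of proteins that bind or make these RNAs, were mostly not in the table. Of 66 such genes 63 were found in the reference by name, and 11 of these were listed (17.5%), next to 10.6% of all protein-coding genes. *dic-1*, not found there by name, was listed as well and is left out of these counts and of the medians below. The listed members of the 3 lists that had any showed median log2 fold changes of 1.60 to 1.70, against 1.81 for all listed protein-coding genes. None of the 15 genes for Sm and LSm ring proteins was listed. None was listed either of the 4 box C/D genes (*fib-1* for fibrillarin among them), the 4 box H/ACA genes or the 2 *ruvb* genes for snoRNP assembly. Of 12 genes for proteins specific to single snRNPs 4 were listed, led by *prp-8*, a core splicing factor of the U5 particle. In the authors' deposited table *prp-8* had a log2 fold change of 2.49 ± 0.11, the helicase gene *snrp-200* 2.15 ± 0.17 and *sart-3*, an assembly factor, 1.25 ± 0.16. Of 7 assembly and transport genes 2 were listed, the importin beta gene *imb-1* at 2.19 ± 0.23 and the cap-binding gene *ncbp-2* at 1.21 ± 0.39 in the authors' deposited table.

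Genes for snRNA synthesis were listed in 5 of 19 cases. These encode the SNAPc complex, which starts transcription at snRNA promoters, and Integrator, which cuts the 3′ ends of new snRNAs. In the authors' deposited table the Integrator genes Y48G10A.4 (*ints-8*) and Y92H12A.4 (*ints-3*) had log2 fold changes of 1.97 ± 0.17 and 1.88 ± 0.27, and the SNAPc gene *snpc-4* had 1.60 ± 0.21. The largest of all these mRNA values, that of *prp-8*, was below the smallest of the 9 structural RNAs, 6.37 for Y24D9A.9, on the log2 scale of the authors' deposited table. The 9 genes were chosen with their folds in view, and the difference in priming touches RNAs without a tail. Nothing is therefore read from this gap.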

How the data were processed

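Titles gave the groups of the 10 samples. DESeq2 1.12.3, STAR 2.5.2b-0, Bowtie2 2.3.0, Trim Galore and the build WBcel235 are named, with no roles or order, in the submitters' processing notes. How reads were counted, by which strand setting, is not given in the sources used here. Per the file headers, the deposited columns are baseMean (a mean normalized count, used as a signal), the log2 fold change (its direction, immunoprecipitate over input, is taken from the table's title), the standard error and test score of that change, and the raw and adjusted p-value. It lists genes with a log2 fold change above 1 and an adjusted p under 0.01. The number of tested genes, 20328, was recovered from the Benjamini-Hochberg values and gave whole ranks for 96.2% of genes (tolerance 0.0001). This recovery was tested on simulated data.

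The members and lists were chosen with earlier results of these data known. All 9 genes are named; others were named as the highest mean or fold of a class, the up to 3 highest folds of a list, or genes around a member, and the rest was chosen after values were seen. Class, position and length came from a WBcel235 table of 46926 genes; 2660 names matched by symbol or locus tag. No RNA sequence was used here. Calculations used Python 3.11.15, pandas 2.3.3 and scipy 1.17.1. The alternatives were the mean, a weighted mean, a minimum mean of 10, shared values counted once, other thresholds for the test against 2-fold, and an input floor of 3 counts.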

Additional observations from a re-analysis of the deposited data

How the results depend on the processing

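Of 39 alternative values 34 stayed within the error, or the spread among the genes of a class, or the margin set for counts, and 5 did not. With the inputs set at no less than 3 counts, chosen after seeing the data, the median log2 fold change was 7.96 for the 4 snRNAs (9.10 as reported) and 6.37 for the 3 snoRNAs (9.25 as reported). With means of at least 10 normalized counts, 24 snoRNAs and 23 ncRNAs were listed in place of 64 and 317, and the ncRNA median was 3.198 in place of 6.57. The 3 snoRNAs spread so widely that their mean signal, 192 normalized counts as a median, was 832 as an arithmetic mean and 1244 without C06A1.9; their standard error was 0.69 as a mean and 0.43 as a median. Averaging and weighting moved no class value of the log2 fold change by more than its error. The test against 2-fold was passed by all 9 genes in each setting run. They were chosen from this same contrast, so nothing is read from that. Adjusted over 20328 genes, a setting added after seeing the data, 1350 listed genes passed, against 1744 when adjusted over the listed genes. No paired analysis was possible because the table has no values per sample, and fits without single replicates were not run for the same reason. The depth of the libraries is unknown.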

Other observations

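Other structural RNAs were listed as well, chosen here after their values were seen. The RNA of RNase P, which trims transfer RNA precursors, is encoded by *rpr-1* and had a log2 fold change of 4.11 ± 0.60 and a mean of 161.8 normalized counts by the authors' deposited table. *mrpr-1*, for the RNA of the related RNase MRP, had a log2 fold change of 8.09 ± 0.53 and a mean of 189 normalized counts by the authors' deposited table. Per kilobase of gene length the means were 639.7 normalized counts for *rpr-1* and 1014 for *mrpr-1*. A mean of at least 1000 normalized counts with a log2 fold change of at least 9 was found for 4 listed genes. Of these, 3 are among the 9, and the other was the ribosomal RNA pseudogene *rrn-3.56*. Its log2 fold change was 10.59 ± 0.44 and its mean 4545 normalized counts by the authors' deposited table.

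Within 10 kb of Y24D9A.9, 5 of 10 annotated genes other than piRNAs were listed, while the windows of the other 8 genes held 0 to 2 listed genes of 4 to 12. Over all reference genes other than piRNAs 8.43% were listed. One of the 5 genes near Y24D9A.9, the protein-coding gene Y24D9A.6, had a log2 fold change of 10.38 ± 1.05 and a mean of 19.4 normalized counts by the authors' deposited table.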
